A study of Mus musculus with 6 samples.

Results

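The genes described here act in mitosis and in the segregation of chromosomes, and were followed in the lungs of mice with an active human SRY transgene. They were chosen by name. Of 51 names, which stand for 50 genes because Cdc2a is the older name of Cdk1, 44 genes matched a symbol of the array, out of 18138 symbols in all. These 44 genes had 70 probes. The names Aurkb, Kif20a, Racgap1, Ncapg, Smc4 and Mki67 matched no row under the symbol given and were not analysed here, so the proliferation marker Mki67 has no value in this account.

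All samples came from male mice (FVB by the labels, FVB/N by the methods) at postnatal day 6, and total RNA of the lung was hybridised to 1 Illumina MouseRef-8 array per mouse. The 3 hSRY-OFF mice carry the transgene Signalox-hSRY without recombination, by the name the study uses, although it also speaks of control littermates that lack the transgene. The 3 hSRY-ON mice carry the recombined transgene, in which the CAG promoter drives FLAG-tagged human SRY together with EGFP. The recombination was made in the one-cell embryo by Cre recombinase that a Ddx4-Cre mother left in the oocyte, and the hSRY-ON mice did not inherit Ddx4-Cre. The transgene is a single copy at the H11 locus, its CAG promoter is active in most cell types rather than in a lung cell type, and before recombination it expresses DsRed2 in place of SRY. Of 31 marker genes of lung epithelium, endothelium, mesenchyme and macrophages on the array, 29 were detected on all 6 arrays, and the exceptions were Hopx and Kdr.

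When a cell enters mitosis, cyclin B activates the kinase Cdk1, condensin and topoisomerase II compact and disentangle the chromosomes, and kinesin motors build a bipolar spindle. The spindle assembly checkpoint holds back the anaphase-promoting complex until every kinetochore is attached, after which separase cuts cohesin and the central spindle guides cytokinesis. Transcripts of these genes are high in cells in G2 phase and mitosis and low in resting cells, and the lung of a newborn mouse, which is still forming alveoli, contains many dividing cells. In whole tissue, fewer cells of a type and less RNA per cell cannot be told apart.

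Many of these genes are known to share promoter elements, which are shown here because the factors that act on them, Foxm1 and Mybl2, are members too. The element called CHR, with the letters TTTGAA, is bound by the MuvB complex, which partners with the proteins of Mybl2 and Foxm1 in dividing cells and with repressors in resting cells. CCAAT boxes close to it are bound by NF-Y. RefSeq promoter windows (build GRCm38.p6, 250 bases before to 50 bases after each start) were found for 42 of the 50 genes, in 44 windows. The CHR letters stood on either strand in 32 of these windows (72.7%), against 17.9% of all 32851 windows and 10.5% of those of DNA replication genes. Within 50 bases of the start the shares were 65.9% and 4.94%, for members and for all windows. CCAAT stood in 77.3% of the members' windows and 37.4% of all windows, and both elements stood close to the start in 40.9% against 0.816%. The E2F letters (GCGGGAA or its variants GCGCGAA and also GCGCCAA and also GCGGCAA) had another distribution, with 20.5% of the members' windows, 65.8% of those of DNA replication genes and 9.57% of all. The last letters of GCGCCAA can overlap CCAAT. These matches describe the letters of the windows and not bound sites.

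Taking the RefSeq start with the lowest coordinate for each gene, the 100 bases before the start held CHR letters in 6 of the 18 genes whose brightest tested probe fell in hSRY-ON lungs, and each of the 6 had a CCAAT box there as well. Their stretches are printed 5′ to 3′ on the strand of the gene, with both elements in capitals in whichever orientation they stand (TTTGAA or TTCAAA for CHR, and CCAAT or ATTGG). They lie at chr11:99024190-99024289 (minus strand) for Top2a, chr19:37376282-37376381 (plus strand) for Kif11 and chr10:69352913-69353012 (minus strand) for Cdk1. The other stretches lie at chr4:118437344-118437443 (minus strand) for Cdc20, chr15:102296193-102296292 (plus strand) for Espl1 and chr7:127042421-127042520 (minus strand) for Kif22. Melk, at chr4:44300817-44300916 (plus strand), is shown as a gene that fell and has neither element in this stretch. Prc1 has another RefSeq start, before which both elements stand within 100 bases, and its stretch is not printed. In the wider windows, CHR letters stood after the start in Plk1, Bub1b, Cdca8, Spag5, Kif4 and Anln, and farther before it in Ncapd2. The share of all genes with CHR letters in the 100 bases before the start was not counted.
Top2a: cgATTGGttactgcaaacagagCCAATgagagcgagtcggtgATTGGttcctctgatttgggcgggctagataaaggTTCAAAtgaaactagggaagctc
Kif11: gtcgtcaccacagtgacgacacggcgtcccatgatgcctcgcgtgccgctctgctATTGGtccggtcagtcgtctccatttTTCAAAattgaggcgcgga
Cdk1: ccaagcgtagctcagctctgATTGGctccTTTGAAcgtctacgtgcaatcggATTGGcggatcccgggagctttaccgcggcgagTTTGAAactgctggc
Cdc20: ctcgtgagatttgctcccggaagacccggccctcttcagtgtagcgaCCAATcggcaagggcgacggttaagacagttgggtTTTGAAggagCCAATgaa
Espl1: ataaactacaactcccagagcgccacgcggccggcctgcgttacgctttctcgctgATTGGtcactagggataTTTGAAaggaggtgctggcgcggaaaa
Kif22: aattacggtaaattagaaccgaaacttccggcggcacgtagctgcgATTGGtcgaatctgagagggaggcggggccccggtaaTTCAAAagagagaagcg
Melk: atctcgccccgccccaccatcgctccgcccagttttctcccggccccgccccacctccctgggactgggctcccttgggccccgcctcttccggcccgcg

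Transcripts of mitosis genes fell in hSRY-ON lungs, with at least 1 called probe in every role group. A probe was tested when 3 or more of the 6 arrays detected it (detection p under 0.05), which held for 44 probes of 31 genes. Of these 44, 26 fell in hSRY-ON with an adjusted p of under 0.05 in the two-sided limma test, and 13.3% of all 13841 tested probes were called lower. None was called higher, against 13.6% of all tested probes, and none was higher at an unadjusted p under 0.05 either. The median change of the 44 probes was -1.10 on the log2 scale, a 2.14-fold lower intensity, while the median of all tested probes was -0.03. The changes ran from -1.68 (Top2a) to 0.06 (Pttg1), and 43 of 44 were below 0. In 34 probes every hSRY-ON array lay below every hSRY-OFF array, as 24.1% of all tested probes did. All 26 called probes and 8 of the 18 others were among them. The same held for all 1845 tested probes called lower, so for called probes it is not particular to mitosis genes.

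The 3 hSRY-ON arrays were not equally low. Relative to the hSRY-OFF mean, the median of the 44 probes was -1.59 on replicate 1, -1.32 on replicate 2 and -0.39 on replicate 3 of hSRY-ON. Replicate 3 was the highest of the hSRY-ON arrays in 43 of the 44 probes, where it was the highest in 34.6% of all tested probes and in 54.8% of the other probes called lower. It reached the hSRY-OFF range in 10 probes and the other hSRY-ON arrays in 1 probe each. Over all 13841 tested probes, replicates 1, 2 and 3 of hSRY-ON were at or above the lowest hSRY-OFF array in 8127, 7961 and 8174. Among the hSRY-OFF arrays, replicate 1 was the highest in 39 of the 44 probes, and in 32.9% of all tested probes. The spread between hSRY-ON mice was wide, with a median SD of 0.675 against 0.196 in hSRY-OFF, and 0.223 against 0.130 over all tested probes. The count of calls was 42 of 44 when replicate 3 of hSRY-ON was left out, and 13 and 9 when its replicates 1 and 2 were. Leaving out hSRY-OFF replicate 1, 2 or 3 left 4, 9 or 10 calls. In the order of these 6 settings, 95.5%, 29.5%, 20.5%, 9.09%, 20.5% and 22.7% of the mitosis probes were called lower, against 14.5%, 17.2%, 8.41%, 4.41%, 4.84% and 6.93% of all tested probes. With each array left out in turn the median change stayed between -0.81 and -1.46, and Ccnb1, Kif11 and Ncaph kept their call every time. Plk1, Prc1 and Top2a lost it without hSRY-OFF replicate 1 alone. Of the 18 genes called on their brightest probe, 7 (Cdk1, Cdc20, Espl1, Cdca8, Kif22, Kif4 and Anln) kept it in 1 of the 6 cases, the one without hSRY-ON replicate 3. For 1 probe on 3 against 3 arrays, exact permutation gives no p below 0.1. The calls therefore rest on the model that limma assumes, which includes pooling the variance of all probes. A fit without pooling was not run.

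**Figure D1:**
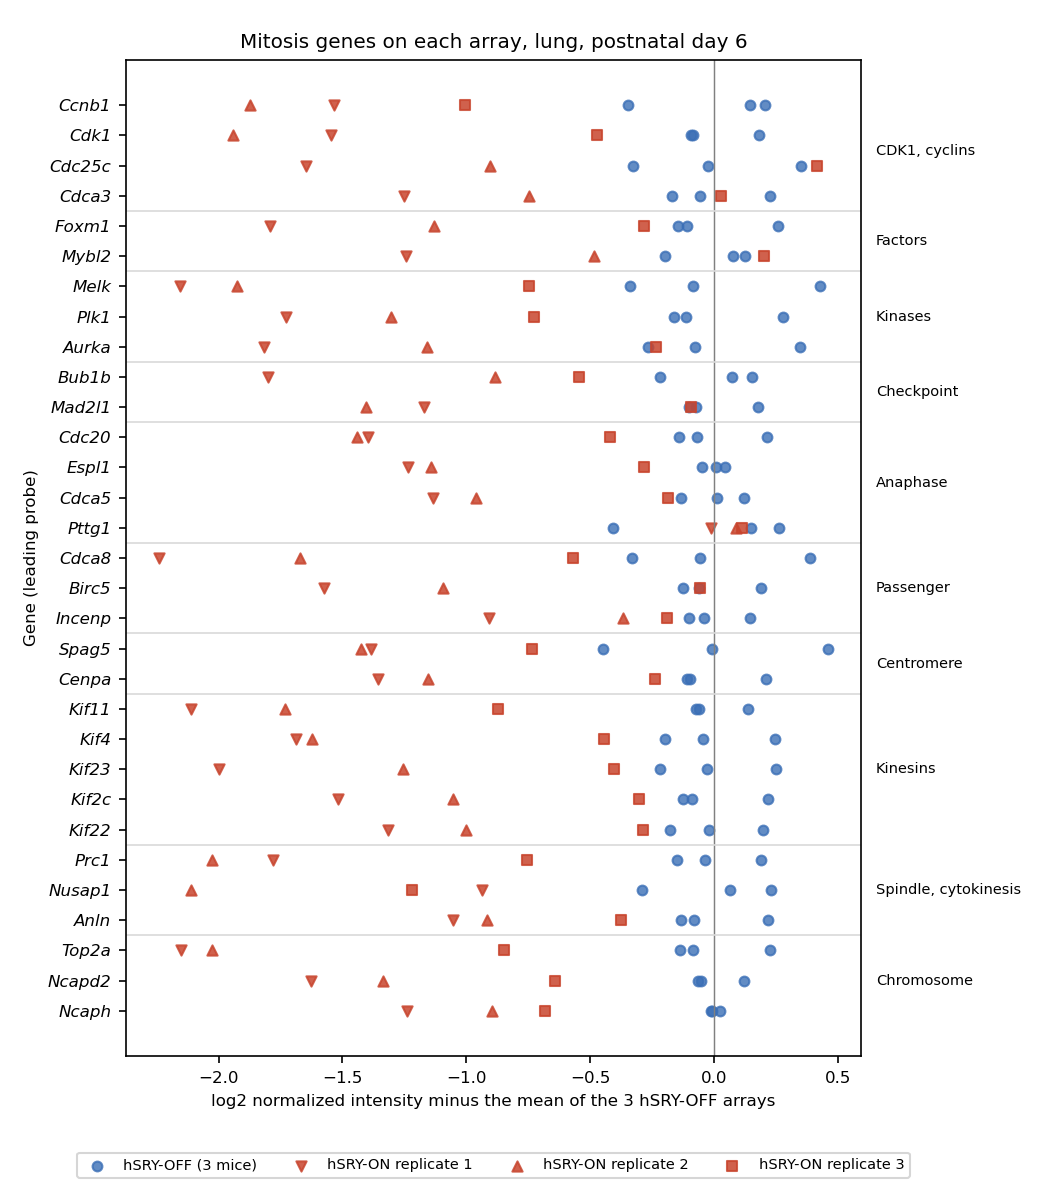
Brightest tested probe of each of the 31 genes on every array, as log2 normalized intensity minus the hSRY-OFF mean, grouped by role (circles for hSRY-OFF, triangles and squares for hSRY-ON). Squares, hSRY-ON replicate 3, lie between the other hSRY-ON arrays and hSRY-OFF in most genes, with a median of -0.40 against -1.53 and -1.16 for replicates 1 and 2.

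**Figure D2:**
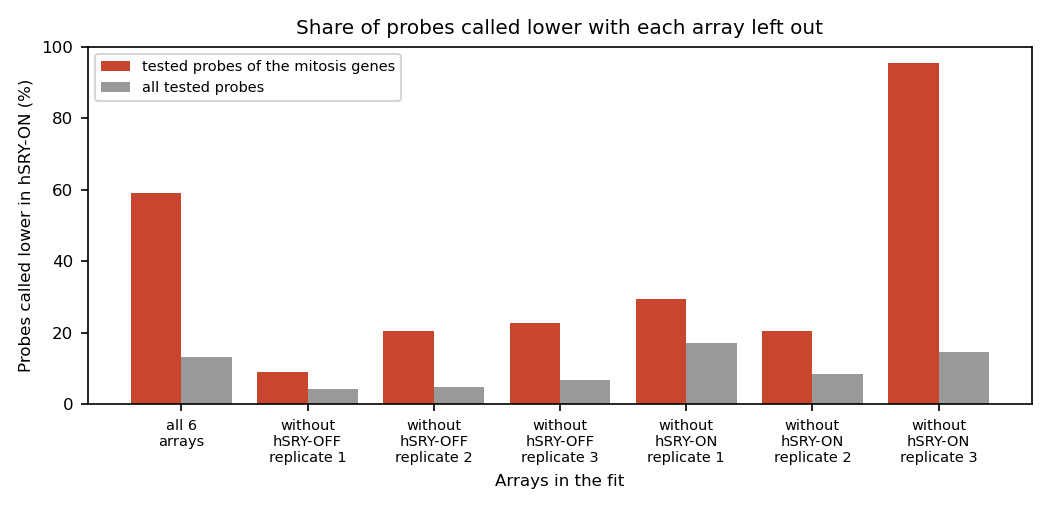
Share of probes called lower in hSRY-ON (limma, adjusted p under 0.05), as a percentage of the tested probes of the mitosis genes and of all tested probes, with all 6 arrays and with each array left out. The share for the mitosis genes is 59.1% with all arrays, 95.5% when hSRY-ON replicate 3 is left out and 9.09% when hSRY-OFF replicate 1 is.

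The pair that starts mitosis fell together. Levels are given as log2 normalized intensity for the gene's brightest tested probe, in the order of replicates 1, 2 and 3. Ccnb1, which encodes cyclin B1, read 8.77, 8.28 and 8.83 in hSRY-OFF and 7.09, 6.75 and 7.62 in hSRY-ON, so that all hSRY-ON mice were lower. Its change was -1.47 ± 0.25 (SE, n = 3 per group, limma adjusted p = 0.00788), and its other probe changed by -1.37 (limma, adjusted p = 0.00496). Cdk1, the kinase that cyclin B1 activates, read 11.17, 10.90 and 10.91 in hSRY-OFF and 9.44, 9.05 and 10.52 in hSRY-ON. The groups did not overlap, with replicate 3 nearest to hSRY-OFF, and the change was -1.32 ± 0.35 (SE, n = 3 per group, limma adjusted p = 0.0327).

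Cdc25c and Cdca3, tested in the same role group as Cdk1 and Ccnb1, were not called on any probe. Cdc25c, the phosphatase that removes the inhibitory phosphates from Cdk1, had changes of -0.71 and -0.90 on its tested probes (limma, adjusted p = 0.310 and 0.181), and replicate 3 of hSRY-ON lay within or above the hSRY-OFF values on both. Cdca3, which helps to degrade the mitosis inhibitor Wee1, had -0.66 and -1.11 (limma, adjusted p = 0.156 and 0.0791). The groups overlapped on the first of these Cdca3 probes and not on the second. Neither gene passed the adjusted threshold at this number of arrays.

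Of the transcription factors that act with the MuvB complex, Foxm1 was called on 1 of its 2 tested probes and Mybl2 on none. Foxm1, a forkhead factor that drives G2 and mitosis genes, read 8.84, 8.47 and 8.44 in hSRY-OFF and 6.79, 7.45 and 8.30 in hSRY-ON on its brightest probe. The groups did not overlap, yet its change of -1.07 ± 0.36 (SE, n = 3 per group) was not called (limma, adjusted p = 0.0637), while the other probe, with -1.12, was called (limma, adjusted p = 0.0422). Mybl2, which encodes B-Myb, read 8.83, 8.51 and 8.78 in hSRY-OFF and 7.46, 8.22 and 8.91 in hSRY-ON. The highest of its 6 arrays was thus an hSRY-ON array, and its change of -0.51 ± 0.34 (SE, n = 3 per group) did not pass (limma, adjusted p = 0.298). The difference between the changes of these factors and of other members was not tested.

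Of the mitotic kinases, Plk1 and Melk fell. Plk1, which acts at centrosomes, kinetochores and the cleavage site, read 9.97, 9.53 and 9.58 in hSRY-OFF and 7.97, 8.39 and 8.97 in hSRY-ON. Its change was -1.25 ± 0.26 (SE, n = 3 per group, limma adjusted p = 0.0147). Melk, a kinase of the AMPK-related family whose transcript is high in dividing cells, read 7.75, 7.24 and 6.98 in hSRY-OFF and 5.17, 5.40 and 6.58 in hSRY-ON. It was detected on 1 of the 3 hSRY-ON arrays, and changed by -1.61 ± 0.38 (SE, n = 3 per group, limma adjusted p = 0.0225). Aurka, the centrosomal Aurora kinase, had a change of -1.07 with overlapping groups and was not called (limma, adjusted p = 0.0787).

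In the spindle assembly checkpoint, Bub1b fell. Bub1b, which encodes the checkpoint inhibitor BubR1, read 8.61, 8.53 and 8.24 in hSRY-OFF and 6.66, 7.58 and 7.91 in hSRY-ON, with no overlap. Its change was -1.08 ± 0.31 (SE, n = 3 per group, limma adjusted p = 0.0417). Mad2l1, which encodes the checkpoint protein Mad2, read 9.99, 9.71 and 9.73 in hSRY-OFF and 8.64, 8.40 and 9.71 in hSRY-ON. Replicate 3 of hSRY-ON was level with the lower hSRY-OFF mice, and the change of -0.89 ± 0.33 (SE, n = 3 per group) was not called (limma, adjusted p = 0.0833).

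Downstream of the checkpoint, Cdc20 and Espl1 fell. Cdc20, the activator of the anaphase-promoting complex that the checkpoint restrains, read 11.19, 10.91 and 10.84 in hSRY-OFF and 9.59, 9.54 and 10.56 in hSRY-ON, with a change of -1.09 ± 0.28 (SE, n = 3 per group, limma adjusted p = 0.0300). All 4 tested probes of Cdc20 were called, with changes from -1.01 to -1.28. Espl1, which encodes separase, read 7.93, 7.84 and 7.89 in hSRY-OFF and 6.65, 6.74 and 7.60 in hSRY-ON. Its hSRY-OFF values were almost identical, and its change was -0.89 ± 0.25 (SE, n = 3 per group, limma adjusted p = 0.0387). Cdca5, which encodes the cohesion protein sororin, had -0.76 with no overlap but was not called (limma, adjusted p = 0.0597). Pttg1, which encodes securin, the inhibitor of separase, stood apart from the other members. It read 6.07, 5.40 and 5.96 in hSRY-OFF and 5.80, 5.90 and 5.92 in hSRY-ON, and its change was 0.06 ± 0.19 (SE, n = 3 per group, limma adjusted p = 0.832). This probe was detected on all arrays but lay near background, where the offset of the background correction compresses differences.

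Members of the chromosomal passenger complex, which corrects faulty attachments and moves to the midzone in anaphase, gave mixed calls. Cdca8, which encodes borealin, read 9.16, 8.71 and 8.44 in hSRY-OFF and 6.53, 7.10 and 8.20 in hSRY-ON, and fell by 1.49 on the log2 scale (SE 0.41, n = 3 per group, limma adjusted p = 0.0367). Birc5, which encodes survivin, read 10.92, 10.67 and 10.61 in hSRY-OFF and 9.16, 9.64 and 10.68 in hSRY-ON on its brightest probe. The groups overlapped there, and the change of -0.91 ± 0.36 (SE, n = 3 per group) was not called (limma, adjusted p = 0.102). Its other probes had no overlap. The first changed by -1.17 and was not called (limma, adjusted p = 0.0618), and the second changed by -1.46 and was called (limma, adjusted p = 0.0297). Incenp, the scaffold of the complex, had the smallest change of the group, -0.49, and was not called (limma, adjusted p = 0.111).

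At the centromere, Spag5 fell and Cenpa narrowly missed the threshold. Spag5, which encodes astrin, a protein of spindle and kinetochores, read 8.17, 7.27 and 7.70 in hSRY-OFF and 6.33, 6.29 and 6.98 in hSRY-ON. Its change was -1.18 ± 0.28 (SE, n = 3 per group, limma adjusted p = 0.0215). Cenpa, the histone H3 variant that marks the centromere, read 12.50, 12.19 and 12.18 in hSRY-OFF and 10.94, 11.14 and 12.05 in hSRY-ON. All hSRY-ON mice were below all hSRY-OFF mice, and the change was -0.92 ± 0.29 (SE, n = 3 per group, limma adjusted p = 0.0540).

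Of 5 kinesins tested, 3 fell. Kif11, which encodes Eg5, the motor that pushes the spindle poles apart, read 8.58, 8.37 and 8.39 in hSRY-OFF and 6.33, 6.72 and 7.58 in hSRY-ON. The gap between the groups was wide even for replicate 3, and Kif11 changed by -1.57 ± 0.30 (SE, n = 3 per group, limma adjusted p = 0.0107). Kif4, a chromosome-bound kinesin, read 9.04, 8.60 and 8.75 in hSRY-OFF and 7.11, 7.17 and 8.35 in hSRY-ON, a change of -1.25 ± 0.33 (SE, n = 3 per group, limma adjusted p = 0.0329). Its other probes were called too, with -1.38 and -1.43. Kif22, which pushes chromosome arms towards the spindle equator, fell by 0.87 on the log2 scale (limma, adjusted p = 0.0487), a call that median or cyclic loess normalization ended (limma, adjusted p = 0.0568 and 0.0526). Kif23, the motor of centralspindlin, and Kif2c, which depolymerises microtubules at centromeres, had changes of -1.22 and -0.96 without overlap and lay just beyond the threshold (limma, adjusted p = 0.0503 and 0.0510).

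The 3 spindle and cytokinesis genes tested all fell. Prc1, which bundles the microtubules of the central spindle, read 12.14, 11.80 and 11.92 in hSRY-OFF and 10.17, 9.93 and 11.20 in hSRY-ON, a change of -1.52 ± 0.32 (SE, n = 3 per group, limma adjusted p = 0.0147). Nusap1, a spindle microtubule protein, read 8.69, 8.17 and 8.52 in hSRY-OFF and 7.52, 6.35 and 7.24 in hSRY-ON. It was the one probe of the 44 in which replicate 1, not replicate 3, was the highest hSRY-ON array, and it changed by -1.42 ± 0.31 (SE, n = 3 per group, limma adjusted p = 0.0161). Anln, which encodes the contractile ring protein anillin, fell by 0.78 on the log2 scale (limma, adjusted p = 0.0299).

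The 3 genes of chromosome structure that were tested fell as well. Top2a, which encodes the topoisomerase that disentangles sister chromatids, read 10.91, 10.60 and 10.55 in hSRY-OFF and 8.53, 8.66 and 9.84 in hSRY-ON. Even the highest hSRY-ON mouse was below the lowest hSRY-OFF mouse, and its change of -1.68 ± 0.34 (SE, n = 3 per group), a 3.20-fold lower intensity, was the largest among the members' brightest probes (limma, adjusted p = 0.0131). Ncapd2, a condensin subunit, read 9.07, 8.89 and 8.90 in hSRY-OFF and 7.32, 7.61 and 8.31 in hSRY-ON, a change of -1.20 ± 0.25 (SE, n = 3 per group, limma adjusted p = 0.0136). A dimmer probe of Ncapd2, detected on 1 hSRY-ON array, had -0.85 and was not called (limma, adjusted p = 0.0801). Ncaph, another condensin subunit, read 10.57, 10.60 and 10.57 in hSRY-OFF and 9.34, 9.68 and 9.89 in hSRY-ON. It had the tightest hSRY-OFF values of these genes and a change of -0.94 ± 0.16 (SE, n = 3 per group, limma adjusted p = 0.00752).

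**Figure D3:**
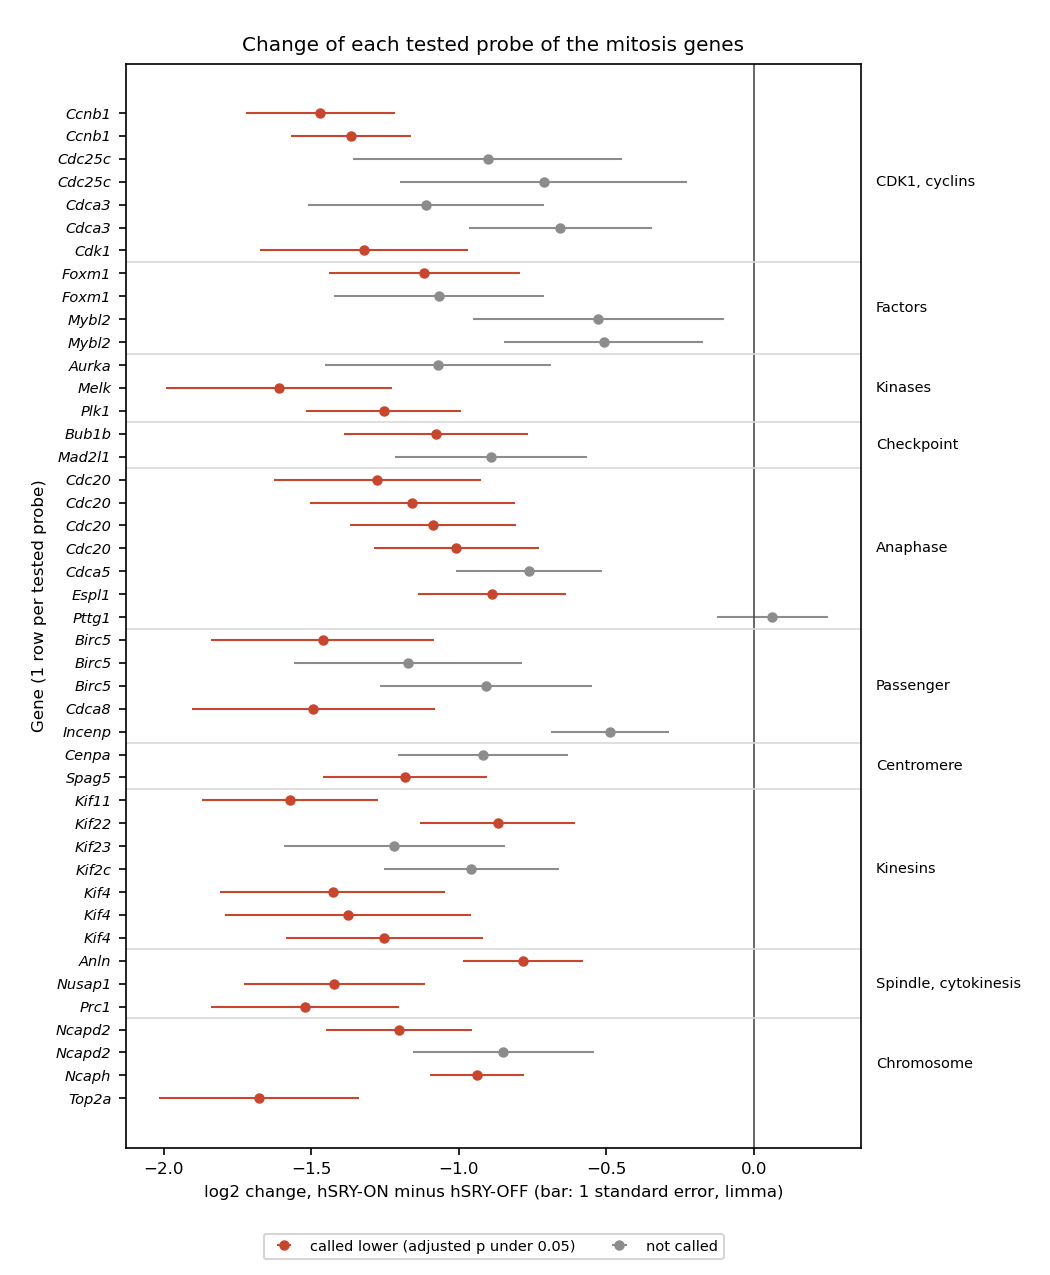
Change of each of the 44 tested probes (hSRY-ON minus hSRY-OFF, log2, with 1 standard error of the limma fit), by role and gene (red for an adjusted p under 0.05, grey for not called). Every probe but that of Pttg1 lies left of 0, and the 26 called probes are spread over all role groups.

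For 13 genes no probe passed the detection filter, so they have no test. They are the cyclins Ccna2, Ccnb2 and Ccnf, the Cdk1-binding subunits Cks1b and Cks2, the kinases Bub1, Ttk and Nek2, the kinetochore motor Cenpe, the spindle factor Tpx2, the cytokinesis activator Ect2, the condensin subunit Smc2 and the ubiquitin-conjugating enzyme Ube2c. Together with further probes of tested genes, 26 probes were left out, of which 21 were detected on no array and 5 on some. Their values on single arrays lay between 4.41 and 6.24 on the log2 scale. A signal this low gives only a bound and does not show that these genes were silent.

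Other genes of the same processes, also taken from name lists, were set beside the members by the brightest tested probe of each gene, on which 18 of 31 members were called lower with a median of -1.07. Further kinetochore and checkpoint genes had 11 of 18 lower and none higher, with a median of -1.02, led by Spc25 of the Ndc80 complex (-1.71), Cenpm (-1.65) and Sgol1, which encodes the cohesin protector shugoshin (-1.47). Further spindle and cytokinesis genes had 8 of 11 lower and none higher, with a median of -1.23, led by the kinase Pbk (-1.75), the motor Kif18b (-1.61) and Shcbp1 (-1.45). These genes had not been used to choose the members, but, like the members, they were listed with earlier results of these data known.

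Groups of proteins that work in mitosis but also serve at other times of the cell cycle had medians near 0. Of 10 genes listed for the cohesin ring and its loaders, 8 were on the array and 6 were tested. The ring subunits Smc3 and Rad21 had no probe that passed the detection filter. On the brightest probes, 0 of the 6 tested genes were called in either direction by limma, and 0 at an unadjusted p under 0.05. Their changes ran from -0.23 to 0.24, with a median of -0.02. Of the 4 tested probes of Smc1a, 1 that was not its brightest was called lower. The core subunits of the anaphase-promoting complex had a median of -0.05 over 11 genes. Of these, Cdc16 (-1.30), Anapc10 (-0.84) and Anapc2 (-0.48) fell and Anapc11, its RING subunit, rose by 1.45.

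Genes of earlier cell cycle steps differed by group. DNA replication genes had 22 of 33 lower, none higher and a median of -0.97, led by Uhrf1 (-1.91), which couples DNA methylation to replication, and the helicase subunits Mcm3 (-1.70) and Mcm5 (-1.48). G1 cyclins with their kinases and E2F activators had 3 of 9 lower and a median of -0.44. The genes called on the brightest probe were Ccne2 (-2.04), E2f1 (-1.03) and Ccnd1 (-0.60). Cdk2 was called lower on 3 of its 4 tested probes, but not on its brightest (-0.41, limma, adjusted p = 0.0830). CDK inhibitors, Rb family members and repressor E2F factors were called in both directions, 3 lower and 3 higher of 12. Cdkn1a, which encodes the inhibitor p21, rose by 1.41 (limma, adjusted p = 0.0156), Cdkn1c, which encodes p57, by 0.87, and Rb1 by 0.53. Cdkn2c, which encodes p18, fell by 2.07 (limma, adjusted p = 0.00315), Rbl1 by 1.15 and E2f7 by 0.50 on the log2 scale. Of the MuvB core and partners, Tfdp1 fell by 0.84 and the DNA-binding subunit Lin54, with -0.01, did not pass (limma, adjusted p = 0.961). Among regulators of mitotic entry and exit, both brakes and activators, the activating phosphatase Cdc25a fell by 0.69 on the log2 scale. Ccng1, a p53 target, rose by 0.59, and the other 4 tested genes were not called.

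**Figure D4:**
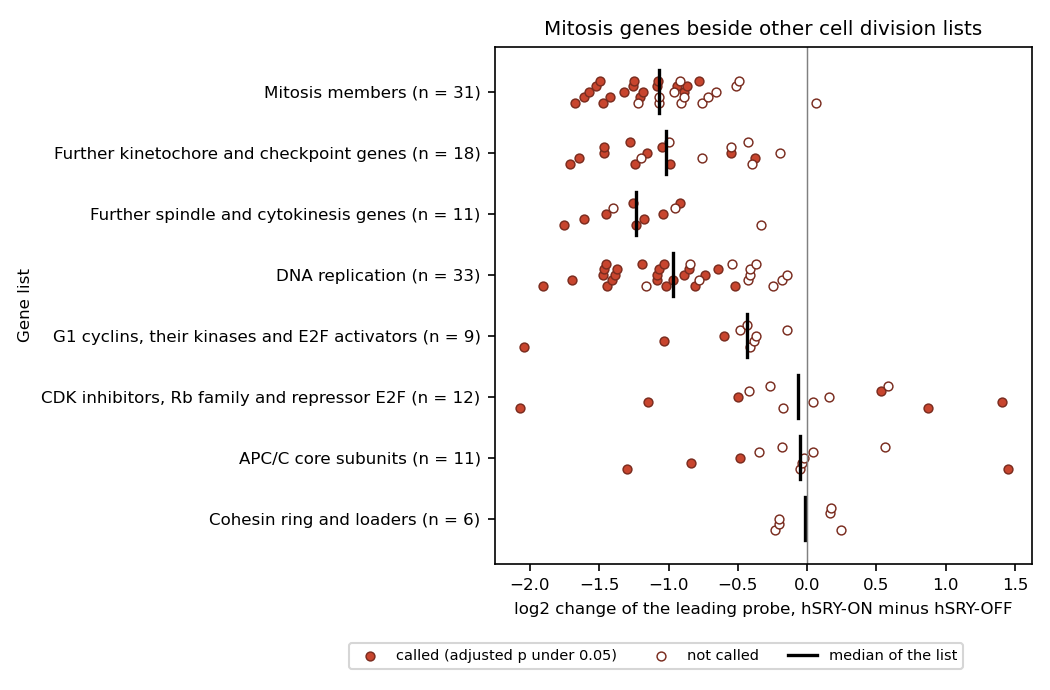
Change of the brightest tested probe of each gene (hSRY-ON minus hSRY-OFF, log2) in the mitosis members and 7 other cell division lists (filled for an adjusted p under 0.05, open for not called, bar for the median of the list). The medians of the members, the further mitosis lists and DNA replication lie between -0.97 and -1.23, and those of cohesin and the anaphase-promoting complex at -0.02 and -0.05.

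Transcripts of other cell types that divide or that could be carried along with the lung were read on the same arrays. Of 12 genes listed for thymocytes, 6 were tested and 4 fell, Cd8b1 (-2.24), Cd3e (-1.75), Lck (-1.25) and Tcf7 (-1.24), with none higher. Mature T lymphocytes express these 4 genes too. The summed linear level of the list was 1597, 1804 and 1812 on hSRY-OFF replicates 1, 2 and 3 and 586, 746 and 1216 on those of hSRY-ON. Within hSRY-ON this was the order of the median of the mitosis probes. Within hSRY-OFF the order differed, as replicate 1 was the lowest for the list and the highest for the mitosis probes. The cardiac muscle and airway sums described below fell from replicate 1 to replicate 3 of hSRY-ON. Rag1, Rag2 and Dntt, genes of immature lymphocytes including thymocytes, were not detected on any array, nor were Cd4, Cd8a and Themis. Ptcra had -0.26 (limma, adjusted p = 0.451). B lymphocyte genes had 1 lower and 1 higher of 4, and their summed level ran from 930 to 1289 in hSRY-OFF and from 1024 to 1294 in hSRY-ON. Erythroid genes had 0 lower (0 at an unadjusted p under 0.05) and 1 higher of 8 by limma, with sums from 60655 to 70823 in hSRY-OFF and from 65233 to 75289 in hSRY-ON. Cardiac muscle genes had 1 lower of 8, Myl4 (-1.94), and 3 higher. The latter were Nppa, which encodes the atrial natriuretic peptide (5.55), Actn2 (1.41) and Myl3 (1.12). The sums of cardiac muscle genes ran from 7423 to 9594 in hSRY-OFF and from 6151 to 11995 in hSRY-ON. Markers of the lung's own cell types moved as well, counted on the brightest probe of each gene. Of 5 macrophage markers 3 rose, Marco (2.56), Cd68 (1.33) and Mrc1 (1.11), and their summed level ran from 3063 to 3393 in hSRY-OFF and from 5864 to 9379 in hSRY-ON. Of 4 airway markers 2 rose, Foxj1 (1.15) and Cyp2f2 (1.18), with sums from 52191 to 54247 and from 62709 to 77259. Of 5 tested endothelial markers 3 fell, Tie1 (-0.82), Cldn5 (-0.67) and Cdh5 (-0.48), with sums from 34792 to 37651 in hSRY-OFF and from 23350 to 25969 in hSRY-ON. Of 6 fibroblast and smooth muscle markers 2 fell, Acta2 (-0.62) and Col1a1 (-0.60), with sums from 79646 to 86678 and from 65305 to 76330. Of 6 alveolar type II markers 2 rose, Sftpb (0.67) and Abca3 (0.60), with sums from 56522 to 61998 and from 66560 to 71185. The alveolar type I markers Pdpn (0.23), Aqp5 (0.17) and Ager (-0.03) did not pass. The part of all these cells in the change of the mitosis genes was not tested.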

How the data were processed

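Lung RNA of 6 mice was measured, 3 labelled hSRY-OFF and 3 labelled hSRY-ON, and groups and replicate numbers were taken from the labels. The authors deposited, for each probe and array, an intensity on a linear scale (the mean signal of a probe's beads), neither background-corrected nor normalized, and a detection p-value, which compares the probe with the negative control probes. How the beads were summarised is not given in the sources used here. The study's methods name the R package TCC, which is made for counts, and the submitters' processing notes name limma. Because the values are intensities, limma 3.58.1 in R 4.3.3 was used.

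Intensities were processed as in neqc, taking the background from the detection p-values, and with an offset of 16, quantile normalization and log2. Differences of dim probes are understated by the offset. A probe was kept when 3 or more of the 6 arrays had a detection p under 0.05, which left 13841 of 25697. lmFit and eBayes compared the groups with no covariate, two-sided, with Benjamini-Hochberg adjustment over all kept probes and a threshold of 0.05, and the fit was tested on simulated data. Between 13191 and 14134 probes were detected per array, and the number of arrays limits the precision. The study calls the arrays of a group biological replicates.

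Probes were matched to members by the array's symbol. A gene is represented by its tested probe of highest mean. Values on every array are given for Top2a, Cdk1, Foxm1, Mybl2 and, in each role group, the 2 genes of largest change, as well as for Pttg1 and Ncaph, which were added after their values were seen. Members that were not called or whose probes differ in call are all named, as are, from each other list, up to 3 called genes of largest change and those called against its majority. The members, lists and rules were chosen with earlier results of these data known. Other background corrections, normalizations, filters, variance models, a replicate block and each array left out were tried. Promoter sequences came from RefSeq (GRCm38.p6).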

Additional observations from a re-analysis of the deposited data

How the results depend on the processing

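The median change of the tested mitosis probes stayed between -0.70 and -1.46 under every alternative, and none of them gave a probe called higher. The count called lower, 26 of 44 with all arrays, was 15 of 70 without the filter on dim probes (6.3% of all probes), 3 at an adjusted p under 0.01 (554 of 13841 probes in all) and between 4 and 42 with 1 array left out (limma throughout). Other background corrections and normalizations, stricter filters, a variance trend and array weights gave 24 to 34. In these settings 54.5% to 77.3% of the tested mitosis probes were called lower, against 12.1% to 15.2% of all tested probes. No member reversed a call, and Pttg1, which was never called, took changes of either sign. The mice share only replicate numbers, whose deviations correlated at -0.11, 0.10 and -0.09 for numbers 1, 2 and 3, and the replicate block gave 12 calls (8.92% of all probes). For the other lists, examined under these settings after the data had been seen, no called gene changed sign. With 1 array left out, 1 to 16 of 17 or 18 further kinetochore genes were called lower. Further spindle genes had 2 to 10 of 11, and DNA replication genes 8 to 26 of 33. Thymocyte genes had 2 to 5 of 6, and 4.41% to 17.2% of all tested probes were called lower. The cause of these differences was not tested, apart from the fewer arrays or larger number of tests that a setting itself brings. Probes near background limit what can be said of the 13 genes without a test.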
